A study of Homo sapiens with 9 samples.

Results

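The genes described here are 44 gene symbols of homologous recombination, the Fanconi pathway and the joining and signalling of DNA breaks, followed by their expression in SKMEL28, a human melanoma cell line. The symbols were chosen by function and matched to the deposited tables, which held 45 gene rows for them among 48162 genes, because the symbol RAD51D stood for 2 Ensembl genes. One of these RAD51D genes (ENSG00000267618) had 0 counts in every library and was not tested. The remaining 44 all passed the filter on low counts, so that 44 of 15776 genes tested were members. SKMEL28 cells were infected with lentivirus carrying a short hairpin RNA and selected with puromycin. shCont cells carried a hairpin to GFP, shp16 cells a hairpin to p16, the cyclin-dependent kinase inhibitor encoded by CDKN2A, and shp16+shATR cells hairpins to both p16 and ATR, the kinase that answers replication stress. All groups shared the cell line, the serum-containing medium and the virus backbone. Which of the study's ATR hairpins was used, and whether shp16 cells also received a control virus, were not given in the sources used here. There were 9 libraries, 3 in each of 3 groups, labelled only by replicate number. The study's legend for LSS mRNA speaks of technical replicates of 1 experiment, and its sequencing methods do not say what the replicates were. The p-values below therefore measure only the spread between these libraries and cannot be taken to measure that between separate infections. The design asks how transcript levels change with the p16 hairpin, and what the added ATR hairpin does.

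Homologous recombination repairs a double-strand break by copying the sister chromatid: the ends are cut back to single strands, BRCA1, PALB2 and BRCA2 prepare them for pairing with the intact copy, and helicases and nucleases take apart the joined intermediates. The Fanconi pathway unhooks crosslinks between the DNA strands by placing ubiquitin on a clamp of FANCD2 and FANCI. Non-homologous end joining instead ligates the ends directly, and polymerase theta joins them through short matching sequences. Many recombination genes are transcribed most strongly in S and G2 phase, when a sister chromatid is present, and E2F factors, released when p16 is lost and RB is phosphorylated, are known activators of many of them.

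Library totals lay between 17314662 and 23588174 counts. The values given for single libraries are CPM, the counts scaled to a common library size by the TMM method, and a gene is called changed at an adjusted p under 0.05 in edgeR's quasi-likelihood test with Benjamini-Hochberg adjustment. CDKN2A was at 162, 113 and 103 CPM in shCont and between 78.1 and 99.9 in shp16, so the groups did not overlap, but the difference was not called (log2 fold change −0.48, adjusted p = 0.0723). It was smaller, and not called either, without shCont 1 (−0.26, adjusted p = 0.0681) and without both shCont 1 and shp16 1 (−0.16, adjusted p = 0.0817). ATR was between 83.4 and 93.5 CPM in shp16 and between 39.9 and 41.0 in shp16+shATR (−1.12, adjusted p = 0.0128). The library labelled shCont 1 stood apart from its group: ATR was at 45.9 CPM there against 93.5 and 96.4 in shCont 2 and 3, and its counts differed from theirs by a chi-square of 61.1 and 74.5 per degree of freedom over genes with at least 10 counts, against 4.75 between shCont 2 and 3. shp16 1 differed from shp16 2 and 3 by 33.7 and 33.0, against 1.92 between those. ATR was not alone in this. Of all 15776 genes tested, 6908 were lower in shCont 1 than in both other shCont libraries and 6851 were higher than in both. Of the members, 24 of 44 were lower in shCont 1 than in both and 15 were higher than in both. POLQ was at 24.2 CPM there against 50.5 and 54.7, and RECQL4 at 83.4 against 58.0 and 56.2. Counts of calls are therefore given with all 9 libraries, without shCont 1, and without both shCont 1 and shp16 1. The 8 melanocytic markers were detected in every group, and their summed level was 13386 to 15002 CPM in shCont, 7769 to 13015 in shp16 and 10941 to 13044 in shp16+shATR, both knockdown groups below shCont. PMEL made most of that sum, with group means of 9014, 6287 and 7343 CPM, and shp16 1 was at 3258 against 7839 and 7763 in shp16 2 and 3. The means of PMEL, TYR, TYRP1 and DCT were below shCont in both knockdown groups, and that of MLANA was above. S100B was lower in shp16, but in shp16+shATR it was 565 CPM beside 568 in shCont and 493 over shCont 2 and 3. MITF and SOX10 were above shCont in shp16 and below it in shp16+shATR. Over shCont 2 and 3 their means were 755 and 821 CPM, above MITF in shp16 (727) and below SOX10 in shp16+shATR (840). Of 4 leukocyte markers PTPRC and CD3E had 0 counts in every group, and the 4 summed to at most 1.06 CPM in any library. The 2 endothelial markers summed to at most 3.12 CPM. The 4 fibroblast markers summed to 26.6 to 45.2 CPM over the 9 libraries, mostly LUM. The summed level of 4 epithelial markers was 2.16 to 3.55 CPM in shCont, 22.0 to 24.2 in shp16 and 24.4 to 27.4 in shp16+shATR. CDH1 made most of the rise, with group means of 2.39, 17.8 and 21.7 CPM. KRT5 had 0, 2.35 and 1.40, KRT14 0.051, 2.38 and 2.06, and EPCAM 0.35, 0.20 and 0.35. The part of the melanocytic and epithelial genes in the results was not tested.

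RefSeq promoters, from 250 bases before to 50 after a gene's start in GRCh38.p14, were found for 37 of the 44 symbols. Those of RAD54L (chr1:46247438-46247737, plus strand), EXO1 (chr1:241847954-241848253, plus strand), BLM (chr15:90717096-90717395, plus strand), FANCF (chr11:22625774-22626073, minus strand) and SLX4 (chr16:3611557-3611856, minus strand) are shown because these genes were called lower in shp16+shATR than in shp16, and that of MDC1 (chr6:30717232-30717531, minus strand) because it had the largest rise of the members in shp16 over shCont. FANCI, the sixth gene called lower, had no entry in the table. Capitals mark words of E2F sites (TTTCCCGC, TTTGGCGC, TTCCCGCC or TTGGCGCC, read on both strands, the words overlapping each other). Each sequence runs 5′ to 3′ along the gene's own strand.
RAD54L: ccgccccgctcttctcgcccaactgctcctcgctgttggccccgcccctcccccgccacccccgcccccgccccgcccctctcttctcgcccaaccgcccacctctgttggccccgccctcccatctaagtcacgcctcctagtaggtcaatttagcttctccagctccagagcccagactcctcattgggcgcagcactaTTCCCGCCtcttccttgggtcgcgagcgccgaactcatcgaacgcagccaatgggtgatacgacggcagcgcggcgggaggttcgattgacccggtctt
EXO1: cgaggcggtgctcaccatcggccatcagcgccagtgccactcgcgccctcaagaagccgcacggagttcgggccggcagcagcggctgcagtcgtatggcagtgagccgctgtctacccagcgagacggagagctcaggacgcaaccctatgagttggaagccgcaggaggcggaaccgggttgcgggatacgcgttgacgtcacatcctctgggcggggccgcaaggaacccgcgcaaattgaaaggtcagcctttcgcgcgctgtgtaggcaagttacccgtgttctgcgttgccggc
BLM: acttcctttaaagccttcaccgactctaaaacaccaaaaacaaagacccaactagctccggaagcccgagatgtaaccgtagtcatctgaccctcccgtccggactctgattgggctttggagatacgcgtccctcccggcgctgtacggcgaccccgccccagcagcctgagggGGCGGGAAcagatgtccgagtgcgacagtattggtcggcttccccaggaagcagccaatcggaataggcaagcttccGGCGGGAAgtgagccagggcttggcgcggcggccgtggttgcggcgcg
FANCF: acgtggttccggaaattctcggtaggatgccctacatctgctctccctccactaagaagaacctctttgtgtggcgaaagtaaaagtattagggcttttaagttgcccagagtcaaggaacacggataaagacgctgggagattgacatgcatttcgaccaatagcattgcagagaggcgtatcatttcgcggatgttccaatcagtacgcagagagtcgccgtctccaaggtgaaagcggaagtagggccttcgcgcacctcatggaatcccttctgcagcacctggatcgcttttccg
SLX4: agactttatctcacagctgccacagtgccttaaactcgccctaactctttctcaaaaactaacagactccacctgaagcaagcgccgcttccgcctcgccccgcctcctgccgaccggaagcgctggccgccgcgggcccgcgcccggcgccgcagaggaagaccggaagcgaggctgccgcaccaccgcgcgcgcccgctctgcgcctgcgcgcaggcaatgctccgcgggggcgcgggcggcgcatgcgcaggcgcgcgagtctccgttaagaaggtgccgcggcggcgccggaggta
MDC1: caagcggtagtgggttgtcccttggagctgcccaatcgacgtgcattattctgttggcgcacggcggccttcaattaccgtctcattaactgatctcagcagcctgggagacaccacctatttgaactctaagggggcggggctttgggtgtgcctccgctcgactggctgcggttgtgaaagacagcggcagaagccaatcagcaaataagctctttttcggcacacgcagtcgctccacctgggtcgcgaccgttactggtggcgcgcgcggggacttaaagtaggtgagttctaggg

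RAD54L held 1 such word and BLM 2, and the other 4 promoters shown held none of the listed words. EXO1 held TTTCGCGC, which differs from the listed TTTGGCGC in a single letter and was not searched for. Only the listed words enter the shares below. Among the members 12 of 37 promoters (32.4%) held an E2F word, beside 8.47% of 9959 promoters of genes tested and 5.30% of 35116 promoters in the table. CCAAT, the word bound by NF-Y, was in 18 of 37 (48.6%) beside 36.8% of genes tested and 34.6% of all, and TTTGAA, the cell cycle homology word of G2 and mitosis genes, in 5 of 37 (13.5%) beside 9.57% and 15.2%. The 12 members with an E2F word had a median log2 fold change of −0.31 in shp16+shATR against shp16, with 9 of 12 below 0 and 2 called lower, beside a median of −0.07 and 6.64% called lower over all tested genes with the word. The 25 without one had −0.25, with 22 of 25 below 0 and 3 called lower, beside −0.01 and 3.87% over all tested genes without it. A word is only a run of letters in this window and was not tested as a binding site.

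Adding the ATR hairpin to p16 knockdown went with lower transcript levels over most of the set. In shp16+shATR against shp16, 38 of 44 members were below 0 on the log2 scale and 6 above, while 49.7% of all genes tested were below 0. The median over the members was −0.29 against 0.0021 over all genes. Called lower were RAD54L, EXO1, BLM, FANCF, FANCI and SLX4, 6 of 44 members, beside 3.49% of all genes called lower and 6.22% in either direction, and 0 members were called higher, beside 2.73% of all genes. DESeq2 and limma called 0 higher too, and at an unadjusted p under 0.05 edgeR and DESeq2 each had 1 higher and limma 0. In 27 of 44 members every shp16+shATR library lay below every shp16 library, which held for 20.1% of all genes, and in 2 (TP53BP1 and LIG4) every library lay above, which held for 17.6%. Without shCont 1, which enters this comparison only through the shared estimate of spread, the scaling and the filter, 20 members were called, 19 lower and LIG4 higher, beside 19.9% of all genes (11.0% lower and 8.94% higher). The 6 calls of the 9 libraries were all among them. Without both shCont 1 and shp16 1 there were 22 lower and 1 higher, beside 14.3% and 12.4%. When single libraries were left out the count ran from 1 (without shp16+shATR a or c) to 20, while the median stayed between −0.30 and −0.27. Upper-quartile scaling turned the split of all genes called from 430 higher and 551 lower to 533 and 451, and gave 4 members lower and 0 higher.

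**Figure D1:**
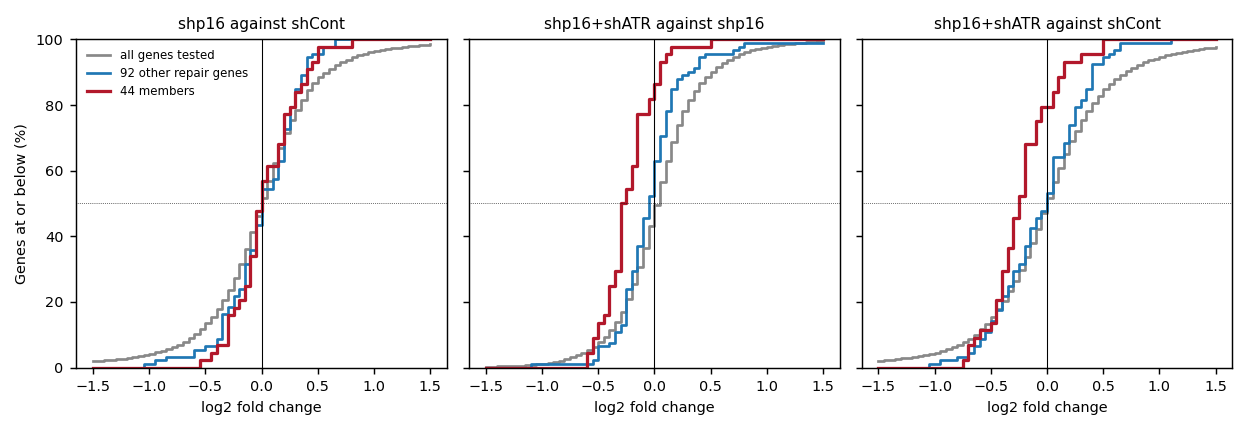
Cumulative distribution of log2 fold changes in the 3 comparisons for the 44 members, 92 other repair genes and all 15776 genes tested. The x axis is the log2 fold change and the y axis the percent of genes at or below it. In shp16+shATR against shp16 the members' curve lies left of that of all genes, with medians of −0.29 and 0.0021, and in shp16 against shCont the curves cross near 0, with medians of −0.05 and −0.02.

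With the p16 hairpin alone, the members lay on both sides of 0. In shp16 against shCont 19 members were above 0 and 25 below, beside 51.8% of all genes below, with a median of −0.05 beside −0.02 over all genes. MDC1 and FANCD2 rose and XRCC4 fell, 3 of 44 members, beside 14.8% of all genes called in either direction (7.23% higher, 7.59% lower). Every shp16 library was above every shCont library in 8 members and below in 3, and each of these patterns held for 16.8% of all genes. Without shCont 1 there were 10 calls, 5 higher and 5 lower, beside 25.9% of all genes, and without shp16 1 as well 14, beside 32.7%. The 3 calls of the 9 libraries were all kept when shCont 1 was left out, whereas only 1 member was called without shp16 1, shp16 2 or shp16 3. Upper-quartile scaling moved the split of all genes called from 1141 higher and 1198 lower to 922 and 1475, and that of the members from 2 and 1 to 1 and 3. Of the 44 members, 19 changed sign when some 1 library was left out and 11 under another setting, none of them called with the 9 libraries.

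Combined knockdown of p16 and ATR left 35 of 44 members below shCont and 9 above, beside 51.7% of all genes below, with a median of −0.25 beside −0.02 over all genes. Called lower were BRCA1, BRCA2, XRCC2, EXO1, RECQL4, FANCF, UBE2T, SLX4 and XRCC4, 9 of 44 beside 12.7% of all genes, and called higher were TP53BP1 and MDC1, 2 of 44 beside 10.9%. Every shp16+shATR library lay below every shCont library in 20 members and above in 3, beside 21.5% and 20.0% of all genes. Without shCont 1 the calls were 23 lower and 3 higher, beside 33.3% of all genes (17.5% lower and 15.9% higher), with a median of −0.34, and all 11 calls of the 9 libraries were kept. The 3 comparisons share libraries in pairs, so their values are set side by side and are not independent. By sign, 17 members were above shCont in shp16 and below shp16 in shp16+shATR, 21 were lower at both steps, 4 lower then higher, and 2 (TP53BP1 and XRCC6) higher at both. In all, 15 members were called in at least 1 comparison and 29 in none.

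**Figure D2:**
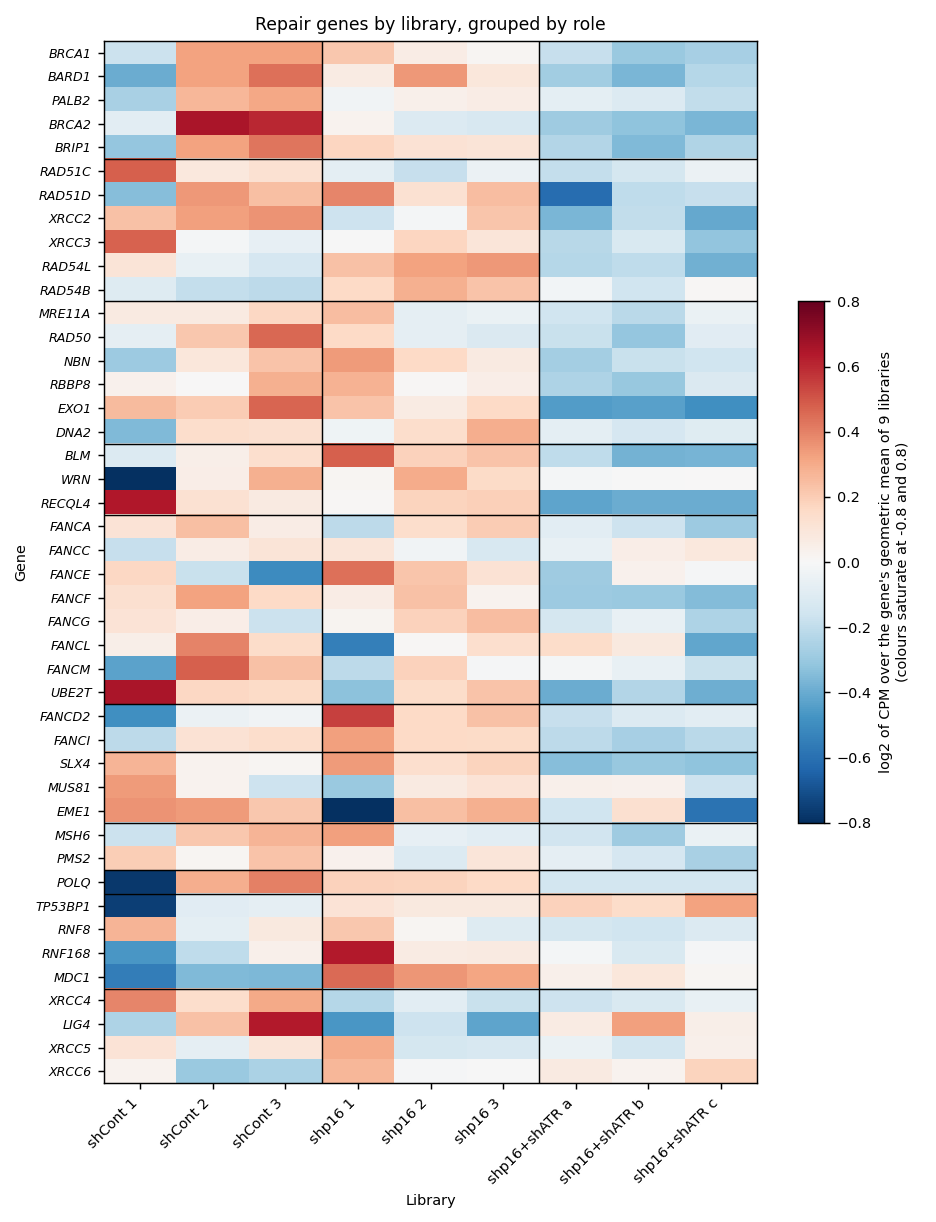
Level of each tested member (rows, grouped by role) in each of the 9 libraries (columns), as log2 of CPM over the gene's geometric mean, from blue (lower) to red (higher), saturating at −0.8 and 0.8. Most rows turn blue in shp16+shATR a, b and c, where the median deviation over the members was −0.16, −0.15 and −0.16, and shCont 1 departs from shCont 2 and 3 in many rows, with medians of −0.02, 0.10 and 0.15.

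Proliferation markers were also lower in shp16+shATR than in shp16. Of 22 markers fixed as a list, 22 were lower in shp16+shATR than in shp16, beside 49.7% of all genes, with a median of −0.34. Of these 7 were called, beside 3.49% of all genes called lower. In 20 the libraries did not overlap, beside 20.1% of all genes in that direction. MCM2, a subunit of the replicative helicase, had a log2 fold change of −0.70 (adjusted p = 0.00455) and CCNA2, the cyclin of S and G2 phase, −0.52 (adjusted p = 0.0279), while MKI67 had −0.32 and was not called (adjusted p = 0.365). Their summed level was 3025 to 3249 CPM in shCont, 3408 to 3916 in shp16 and 2682 to 2843 in shp16+shATR. In shp16 against shCont 16 of 22 were higher and 3 called, beside 14.8% of all genes called. Their median there was 0.15, on the other side of 0 from the −0.05 of the members. In shp16+shATR against shCont 16 were lower and 7 called, beside 23.6% of all genes called, with a median of −0.15. Their part in the members' values was not tested. In such bulk RNA, fewer cells in a phase of the cycle and less RNA of a gene per cell cannot be told apart.

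The BRCA group, which acts on resected ends, had lower values throughout in shp16+shATR than in shp16. All 5 genes had every shp16+shATR library below every shp16 library, which held for 20.1% of all genes, with a median of −0.35. However, edgeR and DESeq2 called 0 of 5 with 9 libraries and each had 3 of 5 at an unadjusted p under 0.05. limma called 0 and had 0 at that p. BRCA2, a tumour suppressor that binds single-stranded DNA at the break, was at 23.8, 39.6 and 38.2 CPM in shCont 1 to 3, at 25.7, 23.3 and 23.1 in shp16 1 to 3 and at 20.7, 20.2 and 19.6 in shp16+shATR a to c. The shp16+shATR libraries were lowest and shCont 1 sat with the knockdown groups, away from shCont 2 and 3. BRCA2 was 0.596 times the shCont level in shp16+shATR (log2 −0.75, SE 0.17, adjusted p = 0.0082). Its difference in shp16 against shCont, −0.49, was not called with 9 libraries (adjusted p = 0.0723) and was −0.70 without shCont 1 (adjusted p = 0.000121). BRCA1, a ubiquitin ligase subunit that promotes resection, was at 59.7, 84.1 and 84.0 CPM in shCont, 78.2, 70.1 and 67.9 in shp16 and 59.2, 54.7 and 56.0 in shp16+shATR. Its shp16+shATR libraries lay below all others, with shCont 1 only just above them. The log2 fold change was −0.42 against shCont (SE 0.14, adjusted p = 0.0432) and −0.35 against shp16 (adjusted p = 0.173, and 0.00492 without shCont 1). BARD1, its partner, was at 18.6, 30.7 and 33.4 CPM in shCont, 25.7, 31.2 and 26.1 in shp16 and 20.2, 19.1 and 21.0 in shp16+shATR, where it was below every shp16 library and overlapped shCont through shCont 1. BRIP1, a helicase that binds BRCA1, was at 15.7, 24.4 and 26.3, then 22.0, 21.1 and 20.9, then 16.6, 15.3 and 16.5 CPM in the same order, with the same overlap. Against shp16 their log2 fold changes were −0.46 and −0.41 and were called without shCont 1 (adjusted p = 0.0048 and 0.00479) but not with all 9 libraries. PALB2, the bridge between BRCA1 and BRCA2, was at 21.1, 30.3 and 31.2 CPM in shCont, 24.7, 25.9 and 26.3 in shp16 and 23.9, 23.3 and 22.0 in shp16+shATR. Its −0.15 against shp16 was not called with or without shCont 1, whereas without shCont 1 it was called lower than shCont in shp16 (−0.27, adjusted p = 0.0274) and in shp16+shATR (−0.42, adjusted p = 0.00168).

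Among the RAD54 translocases and the genes XRCC2, XRCC3, RAD51C and RAD51D, RAD54L fell on ATR knockdown after a higher level in shp16. RAD54L, a DNA-dependent motor that acts during strand exchange, was at 34.8, 31.2 and 29.6 CPM in shCont, 38.2, 40.5 and 41.3 in shp16 and 27.7, 28.1 and 24.8 in shp16+shATR. The 3 groups did not overlap, shp16 being highest and shp16+shATR lowest. The fall from shp16 to shp16+shATR was to 0.672 times (log2 −0.57, SE 0.11, adjusted p = 0.0101) and was called in 15 of 19 alternatives. The difference of shp16 from shCont, 0.33, was not called with 9 libraries (adjusted p = 0.0621) and was called without shCont 1 (0.39, adjusted p = 0.00511). XRCC2, a mediator of homologous recombination, was at 14.9, 15.9 and 16.2 CPM in shCont, 11.3, 12.5 and 14.8 in shp16 and 9.80, 11.03 and 9.53 in shp16+shATR. The order shCont, shp16, shp16+shATR had no overlap between neighbours, and the whole step was called (log2 −0.63, SE 0.13, adjusted p = 0.00615), whereas neither single step was (adjusted p = 0.178 and 0.179). RAD51D was read at only 51 to 113 counts per library, at 3.53, 5.70 and 5.29 CPM in shCont, 5.87, 4.88 and 5.31 in shp16 and 2.94, 3.89 and 3.95 in shp16+shATR, below every shp16 library. XRCC3 was at 39.8, 28.4 and 27.4 CPM in shCont, 28.7, 32.2 and 30.7 in shp16 and 24.6, 26.4 and 23.0 in shp16+shATR, the lowest group, while shCont 1 was far above the rest. Against shp16 RAD51D and XRCC3 had −0.57 (SE 0.21) and −0.31 (SE 0.15) and were called without shCont 1 (adjusted p = 0.0333 and 0.0173) but not with all 9 libraries. RAD51C had 27.6 to 36.3 CPM in shCont, 23.0 to 25.2 in shp16 and 22.8 to 25.2 in shp16+shATR, with no call with 9 libraries. It had −0.37 in shp16+shATR against shCont (adjusted p = 0.0541), every library being lower, and 6 of 19 alternatives called it. It had −0.34 in shp16 against shCont (adjusted p = 0.0912) and −0.02 on adding the ATR hairpin. RAD54B, at 4.10 to 5.79 CPM in all libraries, was 0.39 above shCont in shp16 on the log2 scale with −0.29 from shp16 to shp16+shATR, neither called (adjusted p = 0.11 and 0.333).

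Of the MRN complex and the resection nucleases, EXO1 carried the clearest difference. EXO1, the exonuclease that extends the single-stranded tail, was at 36.2, 35.0 and 42.1 CPM in shCont, 35.6, 31.8 and 34.0 in shp16 and 22.3, 22.5 and 21.6 in shp16+shATR. The shp16+shATR libraries lay far below the other 6, and shCont and shp16 overlapped. It fell to 0.655 times the shp16 level (log2 −0.61, SE 0.11, adjusted p = 0.00817) and to 0.586 times the shCont level (−0.77, SE 0.11, adjusted p = 0.000479), and was called in 18 of 19 and 19 of 19 alternatives. In shp16 against shCont it had −0.16 (adjusted p = 0.353). NBN, which brings the ATM kinase to the break, was at 50.3, 65.5 and 72.1 CPM in shCont, 77.9, 68.8 and 64.6 in shp16 and 50.9, 54.4 and 55.0 in shp16+shATR. RBBP8, which starts resection, was at 56.7, 55.4 and 67.2, then 67.2, 55.7 and 57.5, then 46.5, 44.9 and 51.0 CPM. Both had every shp16+shATR library below every shp16 library, with −0.40 and −0.34, and were called against shp16 without shCont 1 (adjusted p = 0.0048 and 0.028) but not with all 9 libraries. RAD50, the coiled-coil subunit of the complex, was at 54.3, 66.2 and 78.7 CPM in shCont, 63.9, 54.4 and 52.7 in shp16 and 50.6, 46.2 and 53.6 in shp16+shATR. Its shp16+shATR libraries lay below all shCont libraries but overlapped shp16, and its differences from shCont in shp16 (−0.35, adjusted p = 0.0295) and in shp16+shATR (−0.54, adjusted p = 0.00218) were called without shCont 1 and not with all 9 libraries. Upper-quartile scaling and the fit with no filter also called the latter. MRE11A, the nuclease of the complex, and DNA2, a resection helicase and nuclease, had −0.19 and −0.24 against shp16 and no call with 9 libraries, at 22.6 to 31.2 and 9.76 to 15.3 CPM over the 9 libraries.

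All 3 RecQ helicases lay lower in every shp16+shATR library than in every shp16 library, WRN by a narrow margin. This pattern held for 20.1% of all genes. BLM, which dissolves double Holliday junctions, was at 39.5, 44.1 and 46.9 CPM in shCont, 59.4, 48.4 and 49.96 in shp16 and 37.1, 32.8 and 33.0 in shp16+shATR. The groups did not overlap, with shp16 highest and shp16 1 the highest library of all. BLM fell to 0.652 times its shp16 level (log2 −0.62, SE 0.12, adjusted p = 0.0117) and was called in 17 of 19 alternatives. In shp16 against shCont it had 0.27, with an adjusted p of 0.144, and in shp16+shATR against shCont −0.34, with 0.057, which became 0.00735 without shCont 1. RECQL4, a helicase that also acts in replication, was at 83.4, 58.0 and 56.2 CPM in shCont, 53.7, 60.5 and 61.0 in shp16 and 39.9, 40.6 and 40.6 in shp16+shATR. The shp16+shATR libraries were close together and lay below the other 6, of which shCont 1 was far above the rest. The log2 fold change was −0.71 against shCont (SE 0.15, adjusted p = 0.00486), −0.51 without shCont 1, and −0.53 against shp16 (SE 0.15, adjusted p = 0.0536), just outside the threshold, with 0.000249 without shCont 1. WRN was at 8.00 to 16.9 CPM in shCont, 14.02 to 17.1 in shp16 and 13.7 to 13.9 in shp16+shATR, with −0.17 against shp16 and no call.

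In the Fanconi core complex, which attaches ubiquitin to FANCD2 and FANCI, 6 of 8 genes were below 0 in shp16+shATR against shp16, with a median of −0.27, and FANCC and FANCL had 0.04 and 0.06. FANCF, an adaptor subunit, was at 20.7, 23.7 and 21.2 CPM in shCont, 19.8, 22.3 and 19.4 in shp16 and 15.5, 15.4 and 14.9 in shp16+shATR. shCont and shp16 overlapped and the shp16+shATR libraries lay below both. FANCF was 0.746 times its shp16 level (log2 −0.42, SE 0.11), with an adjusted p of 0.0499 at the edge of the threshold, called in 5 of 19 alternatives, and 0.699 times its shCont level (−0.52, SE 0.11, adjusted p = 0.00688), called in 18 of 19. UBE2T, the ubiquitin-conjugating enzyme of the pathway, was at 49.97, 35.7 and 35.3 CPM in shCont, 25.3, 35.1 and 37.3 in shp16 and 24.2, 27.0 and 24.3 in shp16+shATR. shp16 1 lay among the shp16+shATR libraries and shCont 1 far above the rest. It fell against shCont (−0.68, SE 0.17, adjusted p = 0.014), with −0.50 without shCont 1, and had −0.37 against shp16 (adjusted p = 0.254). FANCE, which binds FANCD2, was at 10.6, 8.37 and 6.69 CPM in shCont, 12.9, 11.05 and 10.3 in shp16 and 7.79, 9.74 and 9.43 in shp16+shATR. FANCG was at 43.8, 42.1 and 36.1, then 41.3, 46.2 and 48.2, then 36.9, 39.0 and 34.2 CPM. Both had every shp16+shATR library below every shp16 library, and shp16 overlapped shCont through shCont 1 for FANCE. FANCE had 0.41 in shp16 against shCont, called without shCont 1 (0.59, adjusted p = 0.0185) but not with 9 libraries, and FANCG −0.30 in shp16+shATR against shp16, likewise called without shCont 1 (adjusted p = 0.0288). FANCA was at 35.7, 39.0 and 34.4 CPM in shCont, 28.6, 36.4 and 38.1 in shp16 and 31.2, 29.5 and 27.1 in shp16+shATR. FANCM, a translocase that anchors the complex to DNA, was at 9.01, 16.8 and 14.2, then 10.5, 13.8 and 12.0, then 12.0, 11.6 and 10.7 CPM. Both overlapped between shp16 and shp16+shATR, and without shCont 1 both were called in shp16+shATR against shCont (−0.33, adjusted p = 0.0473, and −0.45, adjusted p = 0.0227). FANCC at 14.2 to 17.3 CPM and FANCL, the ubiquitin ligase subunit, at 21.2 to 40.8 CPM over the 9 libraries had no call in the fit of all 9.

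Both genes of the ubiquitin-marked clamp were highest in shp16. FANCD2 was at 33.6, 45.7 and 46.2 CPM in shCont, 68.8, 52.5 and 55.6 in shp16 and 41.5, 43.7 and 44.5 in shp16+shATR. The shp16 libraries lay above the other 6, with shp16 1 the highest and shCont 1 the lowest library, and shCont and shp16+shATR overlapped. FANCD2 rose 1.41-fold in shp16 over shCont (log2 0.50, SE 0.14, adjusted p = 0.0397), by 0.35 without shCont 1 (adjusted p = 0.0302), and was called in 6 of 20 alternatives. Between shp16 and shp16+shATR it had −0.45 (adjusted p = 0.0962, and 0.00629 without shCont 1), and against shCont 0.05 (adjusted p = 0.845). FANCI, at 248.5, 312 and 317 CPM in shCont, 362, 322 and 320 in shp16 and 248.98, 239.8 and 247.6 in shp16+shATR, had the highest FPKM of the members after the Ku genes. Its shp16 libraries were above the other 6, and shCont 1 lay at the level of shp16+shATR. FANCI fell to 0.734 times in shp16+shATR against shp16 (log2 −0.45, SE 0.12, adjusted p = 0.0444), called in 8 of 19 alternatives. It had 0.19 in shp16 against shCont (adjusted p = 0.298) and −0.25 in shp16+shATR against shCont (adjusted p = 0.14, and 0.00356 without shCont 1). FANCI overlaps POLG on the opposite strand by 959 bases, and POLG held a mean of 3428 counts beside 5894 for FANCI.

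**Figure D3:**
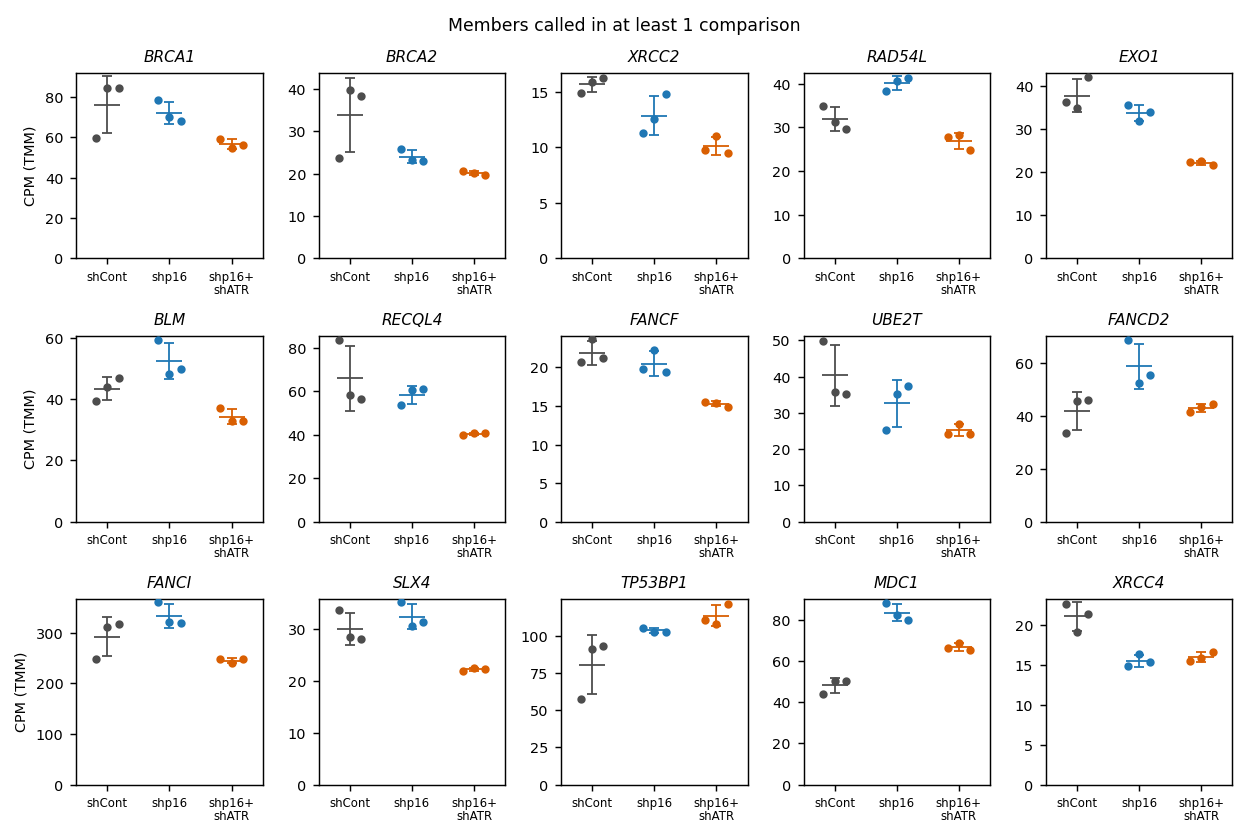
CPM of the 15 members called in at least 1 comparison in each library of shCont (grey), shp16 (blue) and shp16+shATR (orange), with the group mean and SD (n = 3) as bars and the y axis starting at 0. EXO1, RECQL4, FANCF and SLX4 lie lower in all shp16+shATR libraries than in the other 6, MDC1 and FANCD2 are highest in shp16, and in XRCC4 both knockdown groups lie below shCont.

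Of the structure-specific nucleases, the scaffold gene SLX4 fell and the MUS81 and EME1 pair was not called. SLX4, which holds several nucleases together, was at 33.7, 28.5 and 28.2 CPM in shCont, 35.3, 30.6 and 31.5 in shp16 and 22.0, 22.6 and 22.3 in shp16+shATR. shCont and shp16 overlapped and the shp16+shATR libraries lay well below both. It fell to 0.688 times against shp16 (log2 −0.54, SE 0.11, adjusted p = 0.0172) and to 0.741 times against shCont (−0.43, SE 0.11, adjusted p = 0.0167), in 13 of 19 and 15 of 19 alternatives. MUS81, which cuts joined molecules, had −0.0028 against shp16 at 20.8 to 32.2 CPM over the 9 libraries, and its partner EME1 had −0.16 at 6.60 to 15.1 CPM with a standard error of 0.26. The EME1 value is uncertain, since it overlaps LRRC59 on the opposite strand by 6425 bases and LRRC59 held a mean of 3858 counts beside 249.4 for EME1. MUS81 likewise overlaps CFL1 by 4901 bases, with means of 525 and 8817 counts.

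The mismatch repair genes MSH6, which recognises mispaired bases, and PMS2, a subunit of the endonuclease that follows, overlapped between shp16 and shp16+shATR. MSH6 was at 94.1, 123 and 128 CPM in shCont, 133, 101 and 99.98 in shp16 and 95.6, 87.2 and 102 in shp16+shATR. PMS2 was at 31.4, 27.7 and 32.2, then 28.0, 25.4 and 29.3, then 26.1, 25.01 and 23.0 CPM. They had −0.23 and −0.16 against shp16, not called with or without shCont 1, and −0.28 and −0.30 against shCont, called without shCont 1 (adjusted p = 0.02 and 0.0418) but not with 9 libraries. PMS2 is uncertain because pseudogene copies also took reads, PMS2P1 a mean of 229.6 and PMS2CL 179.8 counts. POLQ, polymerase theta, was at 24.2, 50.5 and 54.7 CPM in shCont, 47.0, 46.8 and 46.2 in shp16 and 37.4, 37.3 and 37.3 in shp16+shATR. The shp16+shATR libraries were all below the shp16 libraries, and shCont 1 was below every other library. Its −0.32 against shp16 was not called with 9 libraries and was without shCont 1 (adjusted p = 0.485 and 0.00368), as was the difference from shCont (−0.21 with 9 libraries, −0.50 without shCont 1).

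The genes that mark a break on chromatin included the 2 members called higher in shp16+shATR than in shCont. MDC1, which binds phosphorylated histone H2AX beside the break, was at 43.9, 50.4 and 50.2 CPM in shCont, 88.0, 82.1 and 80.0 in shp16 and 66.4, 68.7 and 65.2 in shp16+shATR. The 3 groups were far apart, shp16 highest and shp16+shATR between. MDC1 rose 1.73-fold in shp16 (log2 0.79, SE 0.10, adjusted p = 0.000383), called in 19 of 20 alternatives, and stayed 1.39-fold over shCont in shp16+shATR (0.47, SE 0.10, adjusted p = 0.00591). Between shp16 and shp16+shATR it had −0.32, not called with 9 libraries in edgeR but called without shCont 1 (adjusted p = 0.0862 and 0.00368), and called by DESeq2 with all 9. TP53BP1, which holds back resection, was at 57.7, 91.3 and 92.8 CPM in shCont, 105, 103 and 103 in shp16 and 111, 108 and 122 in shp16+shATR. The groups were ordered without overlap, and shCont 1 lay far below the other shCont libraries. It rose 1.41-fold in shp16+shATR over shCont (0.49, SE 0.16, adjusted p = 0.0421), by 0.30 without shCont 1 (adjusted p = 0.00902), and its steps of 0.36 and 0.13 were not called (adjusted p = 0.15 and 0.711). RNF168, a ubiquitin ligase acting on histones around the break, was at 30.5 to 43.2 CPM in shCont, 44.1 to 65.3 in shp16 and 38.6 to 41.8 in shp16+shATR. It had 0.48 in shp16 against shCont (adjusted p = 0.0803), and −0.33 in shp16+shATR against shp16 (adjusted p = 0.302). RNF8, the ligase that MDC1 recruits, had −0.05 and −0.18 in these comparisons at 25.7 to 34.6 CPM, with no call.

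Non-homologous end joining was the role in which adding the ATR hairpin did not go with lower levels: 3 of 4 genes were above 0 in shp16+shATR against shp16, with a median of 0.03, although the signs of XRCC5 and XRCC6 turned under other settings. XRCC4, the scaffold of the ligation complex, was at 22.7, 19.1 and 21.4 CPM in shCont, 14.8, 16.3 and 15.3 in shp16 and 15.5, 15.9 and 16.6 in shp16+shATR. The shCont libraries lay above the other 6, and the knockdown groups overlapped. XRCC4 fell to 0.735 times in shp16 (log2 −0.44, SE 0.11, adjusted p = 0.0235), in 13 of 20 alternatives, and to 0.759 times in shp16+shATR against shCont (−0.40, SE 0.11, adjusted p = 0.0257), and had 0.05 between shp16 and shp16+shATR (adjusted p = 0.872). XRCC4 overlaps TMEM167A on the opposite strand by 366 bases, with means of 357 and 2848 counts. LIG4, the ligase itself, was at 8.66, 12.1 and 15.9 CPM in shCont, 7.43, 9.15 and 7.65 in shp16 and 10.7, 12.9 and 10.6 in shp16+shATR. Each shp16+shATR library was above each shp16 library, the shCont libraries ranged over both, and shp16 overlapped shCont only through shCont 1. Without shCont 1 LIG4 was called lower in shp16 than in shCont (−0.80, adjusted p = 0.00283) and higher in shp16+shATR than in shp16 (0.50, adjusted p = 0.0258), and with 9 libraries neither (adjusted p = 0.0753 and 0.196). XRCC6, a Ku subunit, was at 686, 549 and 566 CPM in shCont, 808, 668 and 671 in shp16 and 708, 686 and 761 in shp16+shATR, with 0.25 in shp16 and 0.26 in shp16+shATR against shCont, called without shCont 1 (adjusted p = 0.0224 and 0.0159) but not with 9 libraries. Its partner XRCC5 was at 629 to 856 CPM over the 9 libraries, with no call.

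**Figure D4:**
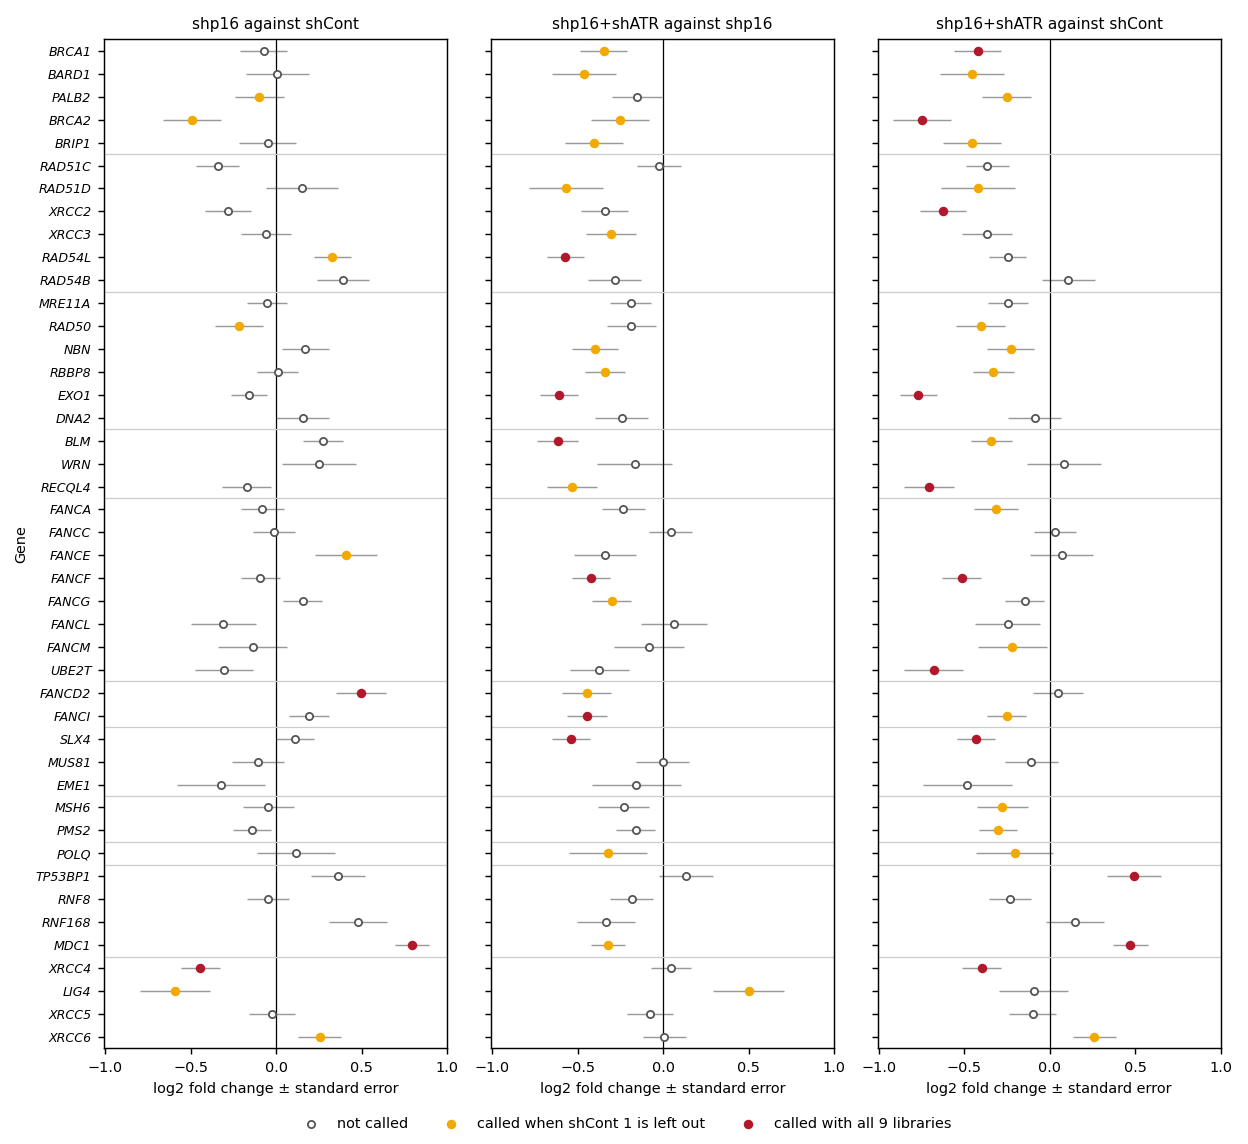
Log2 fold change of each tested member (rows, grouped by role) in the 3 comparisons, from the fit of all 9 libraries, with bars of ± 1 standard error. Filled red points were called with 9 libraries (3, 6 and 11 members), yellow points when shCont 1 was left out but not with 9 (7, 14 and 15), and open points in neither fit.

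On a scale that allows genes to be compared, FPKM, which divides by gene length and library total, the members spanned 1.56 (RAD54B) to 249.5 (XRCC6) as a mean over the 9 libraries. Their median was 8.36 FPKM, beside 5.63 over all genes tested. The Ku genes XRCC6 and XRCC5 (186 FPKM) led, followed by FANCI (61.3), UBE2T (35.5) and MSH6 (24.7). The ranges over libraries of XRCC6, 210.1 to 279.9, and XRCC5, 169.8 to 213, met only at their edges, XRCC5 lay above FANCI throughout, and UBE2T reached 52.0 where FANCI began at 50.3. At the low end, BRCA2 (2.37), RAD51D (1.91), FANCM (1.74) and RAD54B (1.56 FPKM) had ranges over libraries that overlapped.

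Among 92 tested genes of the same pathways outside the set, the median was −0.07 in shp16+shATR against shp16, beside −0.29 for the members. Of these genes 58 of 92 were below 0, beside 49.7% of all genes. Called were 4 lower and 2 higher, beside 3.49% and 2.73% of all genes. The lowest called were the targeted ATR (−1.12), MND1, a recombination factor best known from meiosis (−0.60), and the deubiquitinase BAP1 (−0.55), and the genes called higher were SWI5, a homologous recombination factor (0.70), and the mismatch repair gene MLH3 (0.70). In shp16 against shCont 1 was called higher, the histone methyltransferase SETD8 (0.62), and 4 lower, led by the end-joining factor APLF (−1.09), the Holliday junction resolvase GEN1 (−0.65) and C19orf40 (−0.60), with a median of −0.02. Of all genes 7.23% were called higher and 7.59% lower there. Of the 92 genes 6 were called higher and 17 lower in shp16+shATR against shCont, beside 10.9% and 12.7% of all genes, with a median of −0.01. The extremes were MLH3 (1.05), SETD8 (0.64) and UBE2W (0.57) above and APLF (−1.05), ATR (−0.96) and GEN1 (−0.83) below. The difference between the members and these genes was not tested.

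Reads could be shared at several further members, since the strand of counting was not given. RAD54L overlaps LRRC41 on the opposite strand by 17278 bases, with mean counts of 671 and 2547, MSH6 overlaps FBXO11 by 17638 bases (2168 and 1674), NBN overlaps DECR1 by 1824 bases (1261 and 814), XRCC3 overlaps KLC1 by 3943 bases (594 and 491) and FANCA overlaps ZNF276 by 3355 bases (678 and 353). BRCA1 overlaps NBR2 by 28062 bases, but NBR2 held a mean of only 93.1 counts beside 1381. On the same strand, RAD51D overlaps the RAD51D gene with 0 counts by 21702 bases, with a mean of 93.3 counts of its own. RAD54B overlaps FSBP on the same strand by 58576 bases (97.0 and 9.8). The part of these overlaps in the low counts of RAD51D and RAD54B was not tested. EXO1, BLM and UBE2T overlapped no other listed gene, and the genes overlapping SLX4, FANCD2 and MDC1 held means of at most 5.3 counts.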

How the data were processed

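RNA of SKMEL28 cells was sequenced in 9 libraries, 3 each of shCont, shp16 and shp16+shATR. Novogene made the libraries and processed the reads. Per the labels, the submitters' processing notes name STAR 2.6.1, DESeq2 and GRCh38, without a counting program or annotation. The deposited table gives gene coordinates that run to 249231242 on chromosome 1, past the last GENCODE 29 gene there on GRCh38 (248937043), and names no build, so its coordinates were not used with sequence. Promoters and their positions come from RefSeq (GRCh38.p14) by symbol.

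The authors deposited raw read counts per gene, without normalization, and FPKM values, which equal each count scaled by the table's gene length and the library total (largest relative difference 4.22e-07). The deposited gene length is given in bases. All value columns were used. The count columns of shp16+shATR carry 1 common name, and their libraries are written shp16+shATR a, b and c.

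Counts were scaled by TMM, filtered by filterByExpr and fitted with edgeR 4.0.16 (R 4.3.3) in 1 quasi-likelihood model of all 9 libraries, 1 coefficient per group, and p-values were adjusted by Benjamini-Hochberg over 15776 genes at a threshold of 0.05. Gene levels are FPKM. Single-library values are TMM-scaled CPM. Tables and figures were made with python 3.11.15. The scripts were tested on simulated data. The precision of a gene is limited by its count, and depth was similar between groups.

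The members, the lists of other repair genes and markers, and the tests were chosen with earlier results of these data known. All 44 members may be named. Library values are given for those called in at least 1 comparison or whose call changed without shCont 1, with CDKN2A and ATR, MKI67, CCNA2 and MCM2, and at most 3 lowest and 3 highest of the other repair genes called. Values of a few other members are given as ranges. Alternatives were DESeq2 1.42.0, upper-quartile scaling, library size only, no filter, at least 10 counts in every library, only the groups compared, limma 3.58.1 on log2 of FPKM plus 1 or 0.1, the replicate number as a block, and each library left out. Leaving out both shCont 1 and shp16 1 was chosen after seeing the data.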

Additional observations from a re-analysis of the deposited data

How the results depend on the processing

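Low counts limit RAD51D and RAD54B most, and each overlaps another gene on its own strand. The spread within shCont and shp16 limits every comparison. The biological coefficient of variation was 0.149 with 9 libraries, 0.0903 without shCont 1 and 0.144 without shp16 1. It was 0.0553 without both. No member called with 9 libraries changed sign under any alternative. Over the single members called in at least 1 fit, 1136 values kept their side of the threshold, 128 gained a call and 100 lost one.

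In shp16 against shCont, with 2339 genes and 3 members called and a member median of −0.05, the values beyond 1.5 times these, or outside the spread of the libraries' medians, were as follows. Upper-quartile scaling gave a median of −0.11, no filter 5 members, fitting only the groups compared 1186 genes and 1 member, and leaving out shCont 1 and shp16 1 together 5264 genes and 14 members. Leaving out 1 library gave 1344 to 4192 genes, 1 to 10 members and medians of −0.061 to 0.027, above 0 without shCont 2 (0.0051), shCont 3 (0.021) or shp16 3 (0.027). In shp16+shATR against shp16, with 981 genes, 6 members and −0.29, fitting only these groups gave 2878 genes and 19 members, limma on log2(FPKM + 1) a median of −0.22, and leaving out shCont 1 and shp16 1 together 4304 genes and 23 members. Leaving out 1 library gave 292 to 3223 genes, 1 to 20 members and −0.30 to −0.27. In shp16+shATR against shCont, with 3724 genes, 11 members and −0.25, leaving out shCont 1 and shp16 1 together gave 7130 genes, 30 members and −0.34, and leaving out 1 library 2354 to 5395 genes, 6 to 26 members and −0.34 to −0.24. Among the fits that left out 1 library, the fewest members in the shp16+shATR comparisons were called without shp16+shATR a or c. The most in each comparison were called without shCont 1. The cause of these moves was not tested.

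Deviations of libraries with the same number correlated at −0.122, 0.0388 and −0.177 between shp16 and shCont, at −0.108, 0.289 and −0.303 between shp16+shATR and shp16, and at 0.0423, 0.0688 and 0.13 between shp16+shATR and shCont. Between shp16+shATR and shp16, libraries with unlike numbers ran from −0.369 to 0.426. With 3 libraries per group these values cannot show whether samples with the same number were paired. With the replicate block, edgeR on the counts gave 423 genes and 1 member in shp16 against shCont, and limma on log2(FPKM + 1) gave 283 genes and 0 members there (2 members at an unadjusted p under 0.05), 1051 genes, 5 members and a median of −0.22 in shp16+shATR against shp16, and 2156 genes and 3 members in shp16+shATR against shCont.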
